A study of Mus musculus with 4 samples.

Results

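The complement genes C1qa, C1qb, C1qc, C1ra, C1s1, C4b, C3, C3ar1 and C5ar1 were followed through the cell types of transplanted mouse mammary tumours. These 9 genes were chosen by symbol from the 31053 mouse genes of the count tables, and all 9 were found. The choice was made with earlier results of these libraries known, among them a lower C1q level in the phagocytes of knockout hosts. For that contrast the fitted values and calls are therefore given as a description, and nothing is read from them.

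Single-cell RNA was measured in 4 tumours, each from 1 host and each giving 1 library. In every host 2000000 cells of H605, a HER2-positive mouse mammary tumour line, had been placed in the mammary pad of an FVB/NJ mouse aged 6 to 8 weeks, and tumours were taken at day 14. The hosts were wild type (WT, 2 tumours) or lacked Il1a, the gene of interleukin 1 alpha (Il1a-/-, 2 tumours). The knockout lies in the host, so the transplanted tumour cells of both groups are of the same unmodified line, and every host cell type of an Il1a-/- tumour lacks the gene.

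Complement is a cascade of plasma and tissue proteins that tags targets for removal. C1q, assembled from the chains encoded by C1qa, C1qb and C1qc, recognises a target and carries the proteases C1r and C1s, which cleave C4 and C2 and so lead to cleavage of C3; the fragments C3a and C5a act on the receptors encoded by C3ar1 and C5ar1. Liver cells supply most of the circulating components, whereas C1q is made largely by macrophages and some dendritic cells, and fibroblasts are a known tissue source of C1r, C1s, C3 and C4.

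Promoter sequences are shown for a gene found mainly in phagocytes (C1qb) and for the genes of the fibroblasts that start the cascade and carry it on (C1s1 and C3), to set the DNA of these expression patterns side by side. RefSeq (GRCm38.p6) held an entry for 7 of the 9 genes. The 250 bases before the annotated start are printed 5′ to 3′ on the gene's own strand. They lie on the minus strand at chr4:136886201-136886450 for C1qb, chr17:57228137-57228386 for C3 and chr6:124542360-124542609 for C1s1. Capitals mark any of the motifs GAGGAA (an ETS core preferred by PU.1), TGCTGA (bound as part of the MARE by large MAF factors), TTNNGNAA (C/EBP) and the kappa B motif on either strand.

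C1qb: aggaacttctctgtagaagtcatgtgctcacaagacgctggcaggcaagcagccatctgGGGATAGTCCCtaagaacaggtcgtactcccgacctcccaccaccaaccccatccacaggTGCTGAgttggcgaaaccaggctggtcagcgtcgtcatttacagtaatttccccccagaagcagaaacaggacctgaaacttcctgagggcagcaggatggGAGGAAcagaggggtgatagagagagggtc

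C3: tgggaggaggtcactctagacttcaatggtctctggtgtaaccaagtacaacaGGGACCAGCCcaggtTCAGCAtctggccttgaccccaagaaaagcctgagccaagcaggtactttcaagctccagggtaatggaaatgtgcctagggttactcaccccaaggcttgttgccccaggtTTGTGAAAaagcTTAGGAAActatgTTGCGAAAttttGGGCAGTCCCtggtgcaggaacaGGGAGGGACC

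C1s1: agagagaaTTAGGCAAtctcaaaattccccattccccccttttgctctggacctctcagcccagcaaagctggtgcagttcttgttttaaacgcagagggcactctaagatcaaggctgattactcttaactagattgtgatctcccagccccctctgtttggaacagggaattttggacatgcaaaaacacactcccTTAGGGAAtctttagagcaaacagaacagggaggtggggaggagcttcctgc

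The C1qb window held GAGGAA once, TGCTGA once and 2 overlapping matches to the kappa B motif, one on each strand, and no match to TTNNGNAA. The C3 window held 3 matches to TTNNGNAA, 3 to the kappa B motif and 1 to TGCTGA. The C1s1 window held 2 matches to TTNNGNAA and none to the other 3 motifs. No window held TTCNNNGAA (a GAS element) or the interferon response element. These are short patterns: of 32536 promoters of the same length, 23.4% held GAGGAA, 16.1% TGCTGA, 36.8% TTNNGNAA, 17.7% the kappa B motif, 7.04% TTCNNNGAA and 2.98% the interferon response element. The matches are letters in a window and no binding was measured.

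The libraries held 23464120 and 29001333 UMIs (unique molecular identifiers, barcodes that let each captured transcript be counted once) in WT replicates 1 and 2, and 6705368 and 15298532 in Il1a-/- replicates 1 and 2. They gave 3873, 3878, 3130 and 3246 called cells with medians of 3092, 4164, 1349 and 2889 UMIs in that order, and Il1a-/- replicate 1 was thus the shallowest. Pairs of libraries shared 0 to 5 cell barcodes. Il1a had 65 and 107 UMIs in the WT libraries and 1 and 0 in the Il1a-/- libraries, as labelled. Cells were classed by a gate on marker genes and each class is called "-like". The phagocyte-like class (macrophages and monocytes) held 389, 655, 157 and 379 cells, the fibroblast-like class 350, 211, 287 and 257, the T/NK-like class 2203, 2314, 2280 and 2308, and the plasmacytoid dendritic-like class 182, 96, 96 and 78. A median phagocyte-like cell had a UMI for 53.8% of the phagocyte markers and for 0% of the markers of any other class. Of its 1580 cells, 72 stood at the smallest number of markers the gate accepts and in 90 the lead over the next class was under 2.

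Each member had 1 main source. In the order WT replicates 1 and 2, then Il1a-/- replicates 1 and 2, phagocyte-like cells held 97.7%, 96.7%, 80.8% and 91.6% of the C1q UMIs of called cells. Cells left unassigned by the gate held 11.9% and 5.46% in the Il1a-/- libraries. Fibroblast-like cells held 85.7% to 97.0% of the C4b UMIs, 77.7% to 95.3% of those of C1ra and 92.8% to 98.4% of those of C1s1. C3 was shared more widely, with 56.9% to 93.1% in fibroblast-like cells and 3.66% to 23.6% in phagocyte-like cells. The receptors were mainly in phagocyte-like cells, with 87.8% to 96.4% of C3ar1 UMIs and 86.3% to 90.8% of C5ar1 UMIs.

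**Figure D1:**
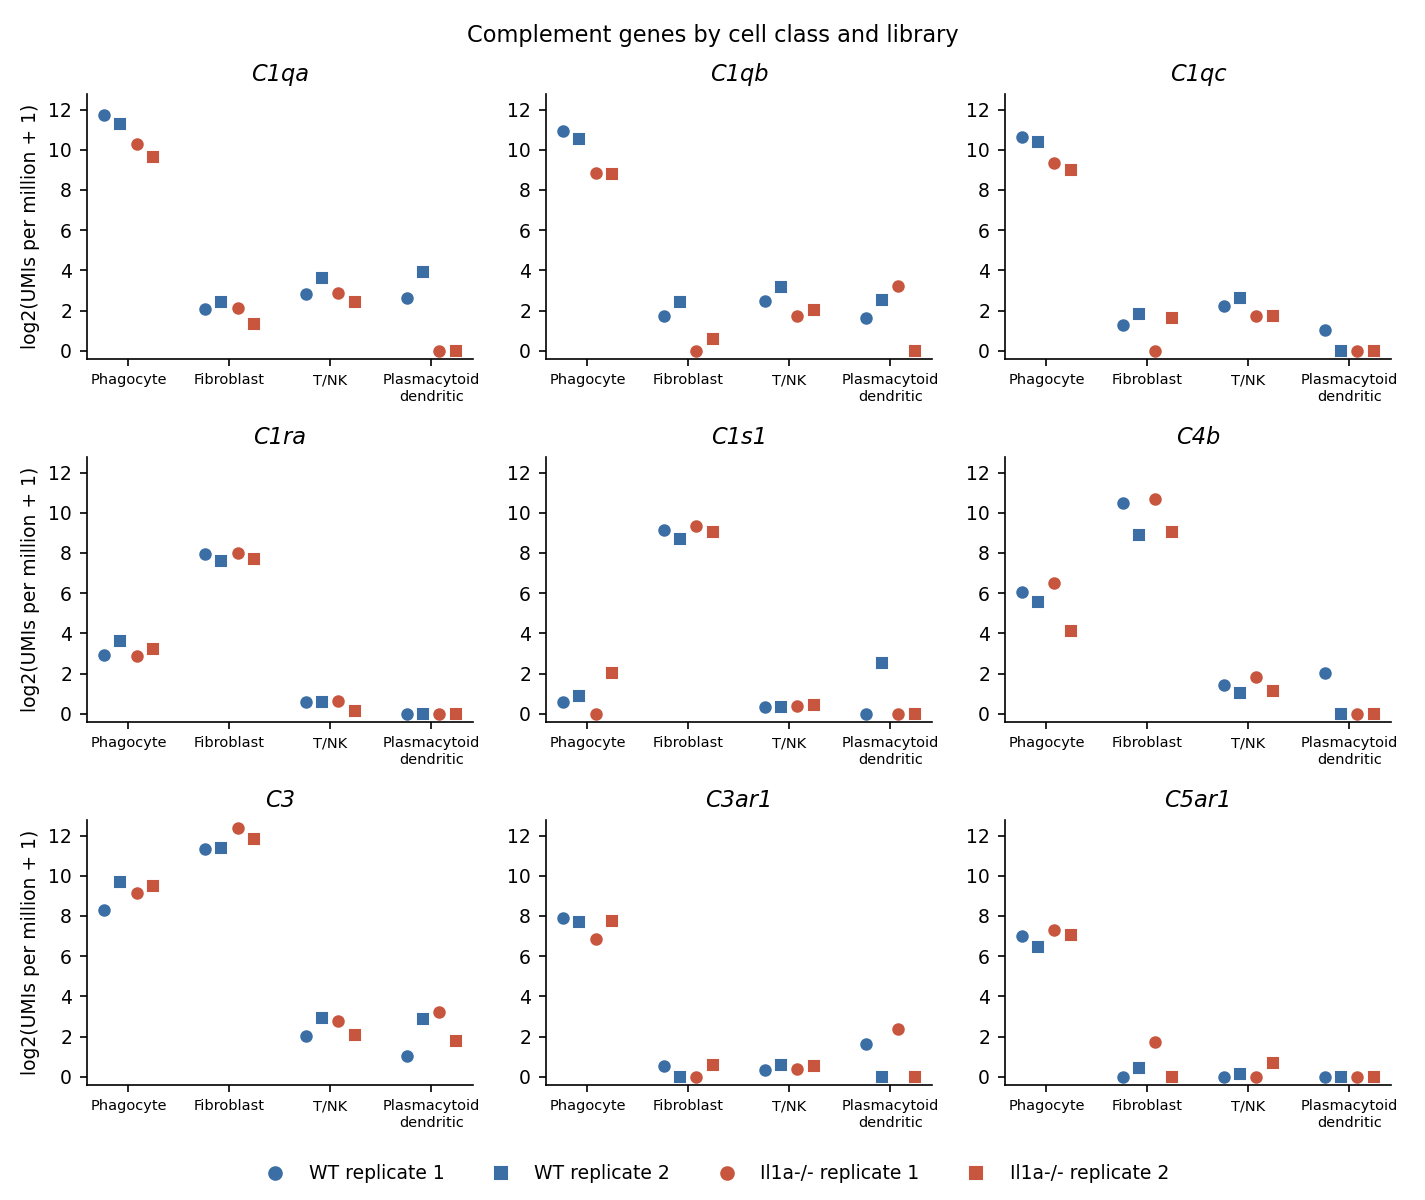
Level of each member, as log2 of CPM plus 1 (CPM, UMIs of a gene per 1000000 UMIs of the class), in 4 cell classes; blue points are WT and red points Il1a-/- libraries, circles replicate 1 and squares replicate 2. The C1q chains and both receptors stand high in phagocyte-like cells, and C1ra, C1s1, C4b and C3 in fibroblast-like cells.

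In phagocyte-like cells the C1q chains were at lower levels in the Il1a-/- than in the WT libraries. Levels are given as CPM, the UMIs of a gene per 1000000 mouse UMIs of that class in that library. C1qa, the A chain, was at 3358 and 2528 CPM in the WT libraries and at 1230 and 800.3 CPM in the Il1a-/- libraries. C1qb, the B chain, was at 1928 and 1468 CPM against 450.8 and 441.7 CPM. C1qc, the C chain, was at 1603 and 1332 CPM against 644.9 and 515.1 CPM. For all 3 chains both Il1a-/- libraries lay below both WT libraries. Summed, C1q was at 6108 ± 1103 CPM in WT and 2042 ± 402 CPM in Il1a-/- phagocyte-like cells (SD, n = 2 each), a ratio of 0.334.

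The fitted log2 fold changes of Il1a-/- against WT in phagocyte-like cells were -1.90 (SE 0.23) for C1qb, -1.53 (SE 0.26) for C1qa and -1.32 (SE 0.22) for C1qc. With edgeR's quasi-likelihood test over 8891 genes, 1 member (C1qb) of the 8 that passed the filter on low counts was called, against a background of 0.0787% of genes called. As the members were chosen with this contrast known, nothing is read from that count. DESeq2 called 3 members, the C1q chains, among 98 called of 8891 genes. The edgeR call of C1qb was lost when 1 of 3 libraries was left out: its log2 fold change was -1.72 without WT replicate 1, -1.83 without the first Il1a-/- library and -1.97 without the second. The 4 members whose groups did not overlap here were the 3 C1q chains, lower in Il1a-/-, and C5ar1, higher; 48.2% of all genes tested had groups that did not overlap. The genes of the 3 chains lie next to each other on the minus strand of chromosome 4, within 18.7 kb, C1qb at 136880129 to 136886187, C1qc at 136889804 to 136893065 and C1qa at 136895917 to 136898803 (GENCODE vM21, GRCm38).

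Over all called cells of a tumour, summed C1q was at 787 ± 59.6 CPM in WT and 204 ± 51.7 CPM in Il1a-/- (SD, n = 2 each), a ratio of 0.259. Phagocyte-like cells made up 10.0% and 16.9% of the called cells of the WT tumours and 5.02% and 11.7% of those of the Il1a-/- tumours. In this whole-tumour sum, fewer phagocytes and less C1q RNA per phagocyte cannot be told apart, which is why levels within the class are given beside it.

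Within the phagocytes C1q RNA lay mainly on the macrophage side. Each phagocyte-like cell was placed on a macrophage side, a monocyte side or between them by the share of macrophage and monocyte markers it had; complement genes took no part. Of 834 cells on the macrophage side, 117 had a lead of under 2 over the other list, so the sides are ranges and not types. The macrophage side held 62.5% and 55.0% of the phagocyte-like cells of the WT tumours and 35.7% and 46.2% of those of the Il1a-/- tumours. Those between the sides made up 19.0% and 26.3% against 33.8% and 31.4%, and those on the monocyte side 18.5% and 18.8% against 30.6% and 22.4%. On each of these shares the genotypes did not overlap. The sides were set without thinning. Median depths of the phagocyte-like cells were 4040 and 4553 UMIs in WT and 1717 and 3610 UMIs in Il1a-/- libraries. A part of depth in these shares was not tested. With 2 tumours a group an exact permutation test cannot go below p = 0.33, and none was run.

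On the macrophage side summed C1q was at 9537 and 7991 CPM in WT and 5013 and 3262 CPM in Il1a-/- libraries. Between the sides it was at 1114 and 1980 CPM against 422 and 268 CPM. On the monocyte side it was at 11.9 and 486 CPM against 327 and 61.1 CPM, where the libraries of the genotypes interleave. Thus the macrophage side carried the highest C1q in every library, and the lower C1q of the Il1a-/- libraries was present both there and in the cells between the sides. The Il1a-/- over WT ratio was 0.472 on the macrophage side, 0.223 between the sides and 0.778 on the monocyte side.

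**Figure D2:**
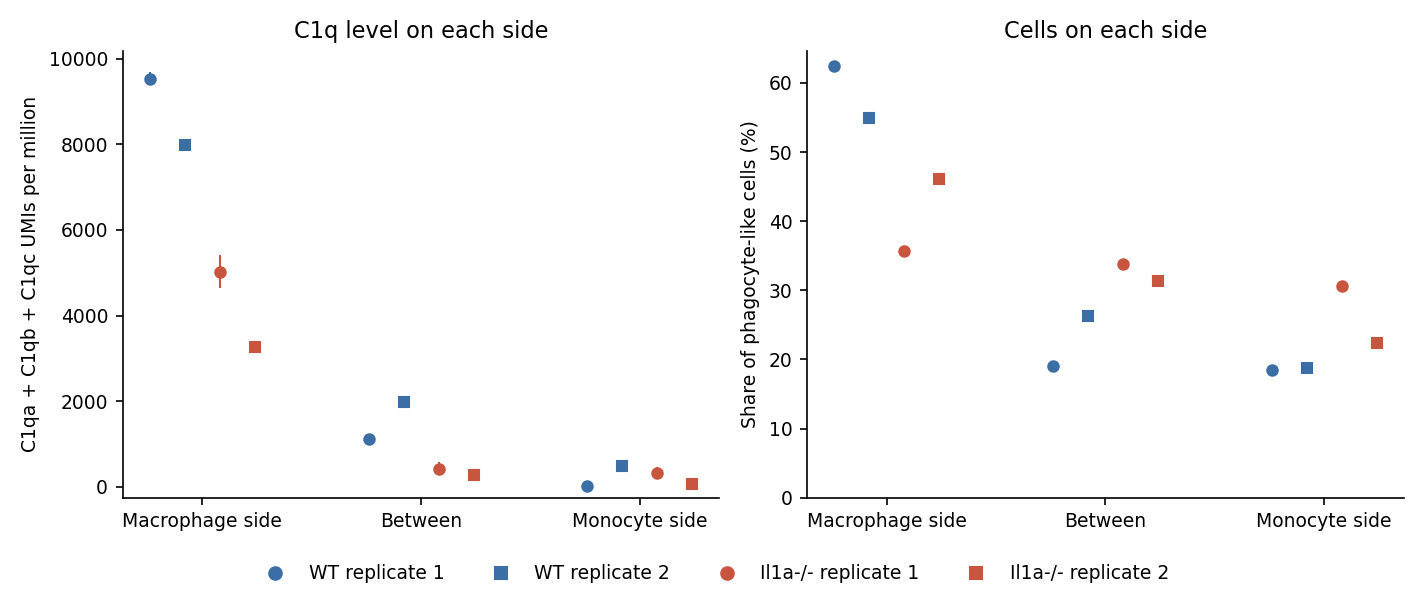
Left, summed C1q in CPM (bars, exact 95% Poisson intervals, counting error only) for phagocyte-like cells by side; right, the share of phagocyte-like cells on each side in percent. On the macrophage side both Il1a-/- libraries (5013 and 3262) lie under both WT libraries (9537 and 7991), and fewer Il1a-/- phagocytes were on that side.

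Fitted on the macrophage side alone, the log2 fold changes were -1.44 (SE 0.27) for C1qb, -1.09 (SE 0.31) for C1qa and -0.90 (SE 0.27) for C1qc. None of the 8 members tested there was called by edgeR's quasi-likelihood test at an adjusted p under 0.05, against 0.102% of 7815 genes. In that test 3 of the 8 had an unadjusted p under 0.05, as had 12.7% of genes. Nothing is read from that count either. Macrophage marker RNA moved along: the 13 macrophage markers summed to 16776 and 7937 CPM in WT phagocytes and to 4790 and 7328 CPM in Il1a-/- phagocytes, with at most 1 marker at 0 in any library. The 7 monocyte markers summed to 1821 and 3047 CPM against 3466 and 9212 CPM, none at 0, but they did not move as 1 list. Chil3 alone made up 248 and 1361 CPM of the sum in WT and 814 and 7463 CPM in Il1a-/- phagocytes. Ly6c2 and Plac8 were also higher in both Il1a-/- libraries, whereas Ccr2, the chemokine receptor of classical monocytes, was lower, at 819 and 694 CPM against 526 and 352 CPM, and Vcan was lower too. The part of these marker differences in the C1q result was not tested beyond the values by side.

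The clusters made without complement genes also divided the phagocytes by C1q level, but their shares did not repeat the shift seen by side. Cluster 8 held 72.8% and 82.6% of WT and 69.4% and 79.9% of Il1a-/- phagocyte-like cells. Cluster 14 held 23.7% and 15.6% against 26.1% and 17.7%. The genotypes overlapped on both shares. Cluster 8, with the leading genes Ccl8, Arg1, Retnla and Mmp12 besides C1q, held C1qa at 4170 and 2928 CPM in WT and 1661 and 943 CPM in Il1a-/- libraries. Cluster 14, led by Ifitm6, Hp, Gsr and Ly6c2, a marker of classical monocytes, held C1qa at 10.1 and 11.8 CPM in WT libraries and 0 and 4.55 CPM in Il1a-/- libraries. C1q RNA was thus nearly confined to the first of these 2 phagocyte clusters in all 4 libraries.

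At equal depth, fewer Il1a-/- phagocytes had C1q at all. After each cell was thinned to 1000 UMIs, 54.1% and 56.1% of the WT phagocyte-like cells and 29.1% and 31.1% of the Il1a-/- ones had a UMI of any C1q chain. The exact 95% binomial intervals, which cover counting error only, ran from 48.7% to 60.3% over the WT libraries and from 21.4% to 37.9% over the Il1a-/- libraries. Thinning used 355 of 389, 563 of 655, 127 of 157 and 344 of 379 cells; without it the shares were 58.9%, 63.8%, 31.2% and 36.9% at median depths of 4040, 4553, 1717 and 3610 UMIs. At 2000 UMIs the share of Il1a-/- replicate 1 was 54.2%, from the 59 cells deep enough, and that of Il1a-/- replicate 2 was 34.9%, against 56.8% and 54.8% in WT. The gap between the genotypes was thus -25.0 percentage points at 1000 UMIs and -11.2 at 2000.

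High C1q content separated the genotypes further. Cells with at least 10 C1q UMIs among their 1000 made up 29.0% and 23.3% of the WT phagocytes and 5.51% and 4.65% of the Il1a-/- ones. On the macrophage side alone, 81.3% and 85.2% of WT cells and 65.9% and 58.9% of Il1a-/- cells had a C1q UMI. Among phagocytes with any chain, all 3 chains were found in 71.0% and 60.1% of WT cells and in 35.1% and 33.6% of Il1a-/- cells, a share that also falls as the level falls. Over the thinned phagocytes of a library, Spearman's rho of C1qa and C1qc was 0.81 and 0.80 in WT libraries (355 and 563 cells) and 0.78 and 0.74 in Il1a-/- libraries (127 and 344 cells). The pairs with C1qb had lower values in every library: C1qa with C1qb was at 0.78 and 0.74 in WT and 0.59 and 0.52 in Il1a-/- libraries, and C1qb with C1qc at 0.74 and 0.64 against 0.535 and 0.586. These values come from the same cells and depths, and they are given as a description. C1qb made up 28.0% and 27.6% of the C1q UMIs in WT and 19.4% and 25.1% in Il1a-/- phagocytes.

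**Figure D3:**
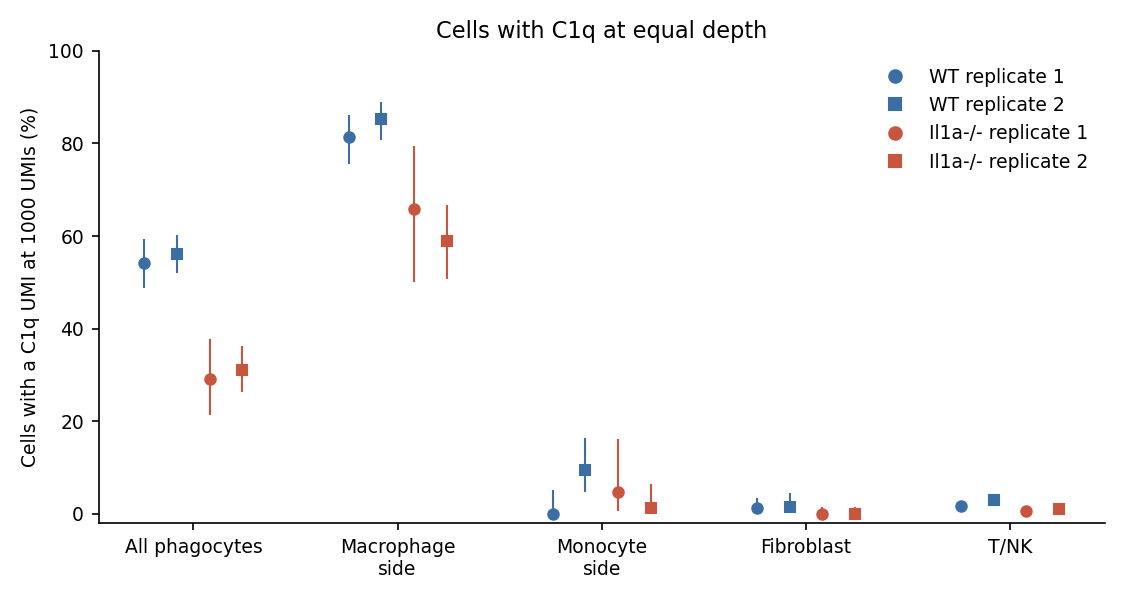
Share of cells with at least 1 C1q UMI, in percent, after thinning to 1000 UMIs, by cell class and library; bars are exact 95% binomial intervals for counting error. Phagocyte-like cells lie at 54.1% and 56.1% in WT and 29.1% and 31.1% in Il1a-/- libraries, far above the T/NK-like cells at 0.62% to 3.06%.

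T/NK-like cells, which should not make C1q, gave the background level. At 1000 UMIs, 1.68% and 3.06% of WT and 0.62% and 1.00% of Il1a-/- T/NK-like cells had a C1q UMI, at median depths of 2893, 4218, 1524 and 2808 UMIs before thinning. Their summed C1q of 14.2, 24.5, 10.9 and 9.74 CPM was 1.18%, 1.07%, 1.33% and 0.94% of the level in barcodes of at most 100 UMIs, which hold free RNA. None of 5 members tested in T/NK-like cells was called (edgeR, 11065 genes), against 5.15% of genes; 2 members had an unadjusted p under 0.05, as had 2769 genes in all, and DESeq2 called none either. The log2 difference of C1qb there was -1.17 (SE 0.40, edgeR adjusted p = 0.128). The free RNA itself held less C1q in the Il1a-/- libraries (822 and 1036 CPM) than in the WT libraries (1203 and 2291 CPM).

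The receptors of the cascade's fragments were found in the same cells, with smaller differences between the libraries. C3ar1, the receptor of C3a, was at 240 and 205 CPM in WT and 113 and 218 CPM in Il1a-/- phagocyte-like cells, so Il1a-/- replicate 1 alone was low. C5ar1, the receptor of C5a, was at 128 and 86.1 CPM in WT and 157 and 131 CPM in Il1a-/- libraries, with both Il1a-/- libraries just above the WT ones. Their log2 fold changes were -0.31 (SE 0.32) and 0.45 (SE 0.25). By side, C3ar1 was at 164 to 315 CPM on the macrophage side and 27.7 to 54.7 CPM on the monocyte side, whereas C5ar1 covered 91.1 to 223 CPM and 31.6 to 146 CPM, ranges that overlap. C3ar1 thus lay with C1q on the macrophage side in every library. In WT libraries C5ar1 was at 116 ± 34.7 CPM on the macrophage side and 118 ± 39.9 CPM on the monocyte side. In Il1a-/- libraries it was at 182 ± 57.7 CPM and 64.0 ± 45.9 CPM (SD, n = 2 each).

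Fibroblast-like cells held most of the UMIs of C3, C4b, C1ra and C1s1 in every library. C3, the component on which all routes of activation converge, was at 2593 and 2666 CPM in WT and 5228 and 3671 CPM in Il1a-/- fibroblast-like cells. Both Il1a-/- libraries were above both WT libraries, but they also differed from each other by more than the WT libraries did. The log2 fold change was 0.75 (SE 0.34) with an adjusted p of 0.846 in edgeR's quasi-likelihood test over 9943 genes, so the difference did not pass. At 1000 UMIs a C3 UMI was seen in 78.5% and 64.8% of WT and 94.1% and 81.1% of Il1a-/- fibroblast-like cells, against 0.25% to 0.80% of T/NK-like cells.

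The fibroblast-like cells fell mainly into 2 clusters that differed in C3. Cluster 0, with the leading genes Smpd3, Tnxb, C4b and Sfrp4, had C3 at 2677 and 2978 CPM in WT and 5244 and 4021 CPM in Il1a-/- libraries. Cluster 16, led by Spp1, Tagln, Acta2 and Tnc, had C3 at 1841 and 1969 CPM in WT and 266 CPM in Il1a-/- replicate 2 (20 cells), with too few cells in Il1a-/- replicate 1. It held 11.4% and 31.8% of WT fibroblasts and 7.78% of those of Il1a-/- replicate 2. C3 was therefore higher in both Il1a-/- libraries within cluster 0 as well, and lower in cluster 16 in the 1 Il1a-/- library that could be read.

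C4b, the C4 gene cleaved by C1s, was at 1455 and 469 CPM in WT and 1658 and 518 CPM in Il1a-/- fibroblast-like cells. The replicate 1 library was high and the replicate 2 library low in each genotype, so the spread within a genotype was wider than the gap between them (log2 fold change 0.16, SE 0.72). In cluster 0 the same order held, with 1611 and 674 CPM in WT and 1673 and 570 CPM in Il1a-/- libraries, whereas cluster 16 had C4b at 5.66 to 37.4 CPM. Per the labels, 2 pairs of tumours were taken on different days; the labels do not tie the replicate numbers to the pairs, and a part of collection in these values was not tested. C4b has a near copy in the mouse genome, C4a, without a row of its own in the tables, so reads of the copies cannot be told apart here.

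The proteases carried by C1q were found mainly in fibroblast-like cells, at levels that overlapped between the genotypes. C1s1 was at 562 and 407 CPM in WT and 650 and 525 CPM in Il1a-/- fibroblast-like cells, and the genotypes overlapped. C1ra was at 247 and 194 CPM against 251 and 207 CPM, which also overlapped. Their log2 fold changes were 0.28 (SE 0.31, adjusted p = 0.894) and 0.05 (SE 0.28, adjusted p = 0.983). Both have near copies beside them on chromosome 6, C1s2 and C1rb. How the counting treated reads that match both copies was not tested, so levels of single copies are uncertain. C1s2 was at 84.3 and 41.4 CPM against 141 and 81.5 CPM, and C1rb at 94.9 and 70.9 CPM against 112 and 81.0 CPM.

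None of the 4 members tested in fibroblast-like cells was called, against 0.0% of all 9943 genes. edgeR gave 498 genes (5.01%) at an unadjusted p under 0.05, none of them a member, and DESeq2 called 9 genes, again no member. The median log2 fold change of the 4 members was 0.22 and that of all genes -0.01. C3 was the 1 member of the 4 whose groups did not overlap; 37.1% of all genes tested did not overlap either.

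**Figure D4:**
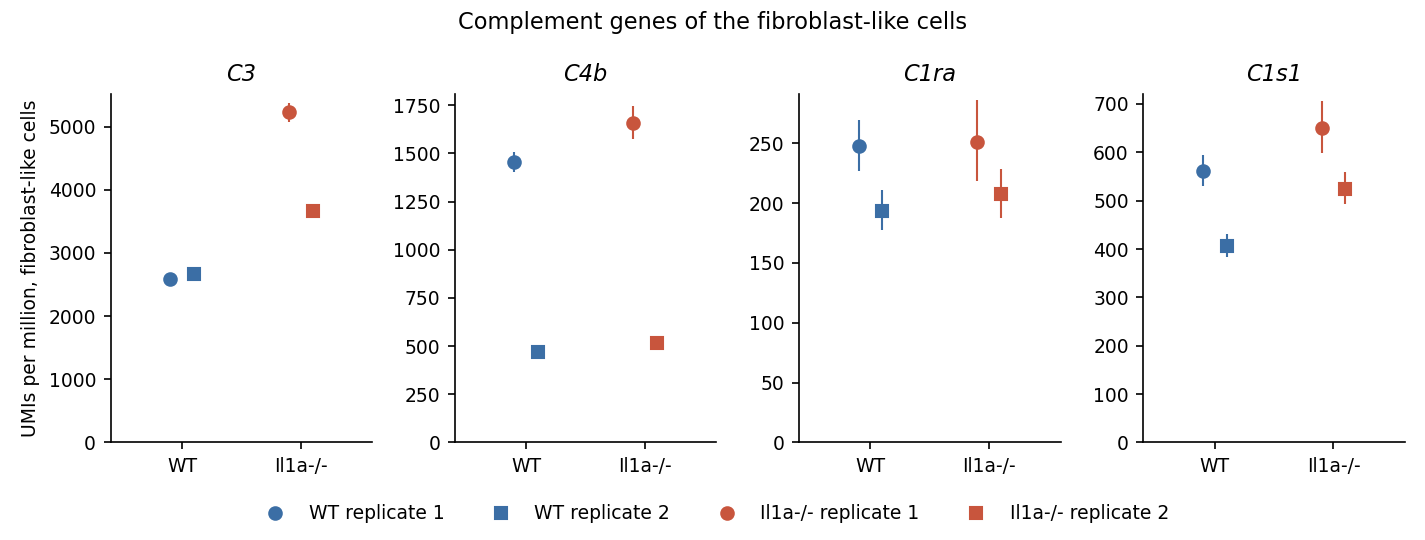
CPM in fibroblast-like cells for C3, C4b, C1ra and C1s1 by host genotype; bars are exact 95% Poisson intervals for counting error. C3 is higher in both Il1a-/- libraries (5228 and 3671 against 2593 and 2666), while C4b follows the replicate number and C1ra and C1s1 overlap.

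C3 was the only one of these 4 genes with a sizeable level in phagocytes. Phagocyte-like cells had C3 at 318 and 816 CPM in WT and 567 and 715 CPM in Il1a-/- libraries (log2 fold change 0.21, SE 0.42). The Il1a-/- libraries lay between the WT ones. C3 was present on the macrophage side (348 to 933 CPM) and between the sides (223 to 721 CPM). On the monocyte side it was at 285 to 643 CPM. These ranges overlap, unlike those of C1q on the macrophage and monocyte sides. By cluster, C3 was higher in cluster 8 in every library, at 341 and 899 CPM in WT and 681 and 790 CPM in Il1a-/- libraries. In cluster 14 it was at 280 and 318 CPM against 271 and 346 CPM. C4b in phagocyte-like cells was at 66.3 and 46.6 CPM against 90.8 and 16.3 CPM, and C1ra at 6.26 to 11.2 CPM. C1s1 had 0 to 3.01 CPM in phagocyte-like cells, near the floor that 3 counts allow (0.818 to 9.39 CPM), and did not pass the filter there.

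**Figure D5:**
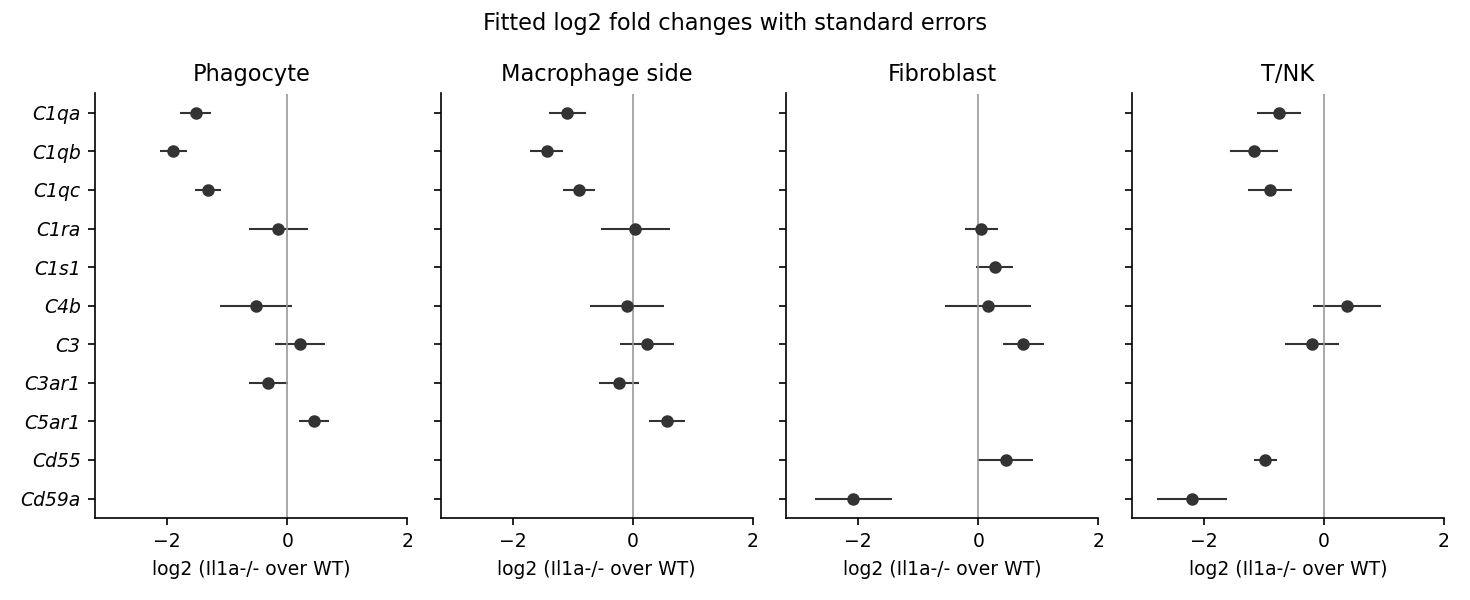
Fitted log2 fold changes of Il1a-/- over WT with standard errors, for the members and for Cd55 and Cd59a, where a gene passed the filter on low counts. C1qb lies at -1.90 in phagocyte-like cells and -1.44 on the macrophage side, with C1qa and C1qc beside it, while C3 in fibroblast-like cells lies at 0.75.

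The list of other complement genes held 42 symbols, of which 41 had a row in the tables. In phagocyte-like cells 13 of them were tested and none was called; 4 had an unadjusted p under 0.05, as had 1242 genes in all, and DESeq2 called none. Among them were C6 (a part of the membrane attack complex) at -0.92 (SE 0.33) and the integrin chains of complement receptor 3, Itgam at 0.68 (SE 0.28) and Itgb2 at 0.69 (SE 0.26), chosen after their values were seen. Itgb2, Cfp (properdin), Itgam, Lrp1 and Itgax had the highest levels of the list, from 119 to 429 CPM.

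In fibroblast-like cells 14 other genes were tested and none was called, with 2 at an unadjusted p under 0.05 and none called by DESeq2. The inhibitor of C1r and C1s, Serping1, was at 2306 and 1280 CPM in WT and 1247 and 1163 CPM in Il1a-/- libraries (log2 fold change -0.57, SE 0.38, adjusted p = 0.853), so WT replicate 1 stood apart from the other 3. Lrp1, Cd55 and C2 were also among the highest of the list, from 65.8 to 710 CPM. C2, the second substrate of C1s, was at 82.9 and 97.1 CPM against 65.8 and 114 CPM.

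Of the other complement genes, Cd59a was called in plasmacytoid dendritic-like cells and Cd55 in T/NK-like cells, 1 gene in each class. Both encode inhibitors of complement on the cell membrane, a group that was not tested as such. A further membrane inhibitor, Cr1l, had Il1a-/- over WT ratios of 1.02 and 0.975 in these classes, and its groups overlapped in both. Others on the list differed, at group means of at most 4.13 CPM. Cd46 had ratios of 6.48 (no overlap) and 0.849 (overlap) in the same order of classes. Cd59b had ratios of 0.297 and 0.228, without overlap in either. In plasmacytoid dendritic-like cells Cd59a, an inhibitor of the membrane attack complex, was at 306 and 409 CPM in WT and 29.2 and 17.2 CPM in Il1a-/- libraries. It fell by 3.995 on the log2 scale (SE 0.32, adjusted p = 2.19e-05, edgeR's quasi-likelihood test), lower in both Il1a-/- libraries, and was the 1 gene called of 5 tested, against 1.57% of 5869 genes. No member passed the filter on low counts in this class. Cd59a was also low in Il1a-/- cells of the fibroblast-like class, at 15.7 and 48.4 CPM against 5.67 and 8.77 CPM (adjusted p = 0.846), and of the T/NK-like class, at 2.58 and 3.16 CPM against 1.15 and 0.352 CPM (adjusted p = 0.071), neither of which passed. In 2 other classes the mean was not lower in Il1a-/- libraries: phagocyte-like cells had Cd59a at 4.28 ± 1.05 CPM in WT and 6.20 ± 4.51 CPM in Il1a-/- libraries, and tumour epithelial-like cells at 57.3 ± 7.37 against 138 ± 125 CPM (SD, n = 2 each), the latter from 26 and 3 Il1a-/- cells, and the groups overlapped in both. Cd59a lies on chromosome 2 from 104095801 to 104115354, 25.2 Mb from Il1a on the same chromosome. Next to it lies a near copy, Cd59b, and how the counting treated reads that match both was not tested. The fits give no test of a difference between the classes.

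In T/NK-like cells Cd55, which speeds the decay of C3 convertases, was at 30.2 and 24.1 CPM in WT and 13.5 and 13.3 CPM in Il1a-/- libraries. It fell by 0.97 on the log2 scale (SE 0.19, adjusted p = 0.032, edgeR), lower in both Il1a-/- libraries, and was the 1 gene called of 9 tested, against 5.15% of all genes. The call was lost without WT replicate 1, where the log2 difference of Cd55 was -0.83 (edgeR adjusted p = 0.169), and without WT replicate 2, where it was -1.12 (adjusted p = 0.152). In fibroblast-like cells Cd55 was at 427 and 210 CPM in WT and 561.5 and 319 CPM in Il1a-/- libraries (adjusted p = 0.886), and the genotypes overlapped there. The make-up of the T/NK-like class by cluster differed between the libraries: cluster 4 held 14 and 26 cells in WT and 769 and 501 in Il1a-/- libraries, and its part in the Cd55 result was not tested.

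Across 4 classes and 4 libraries (16 values that share their libraries and depths, 6246 genes compared), the genes nearest to summed C1q in log2 level were Aif1, Ear2, Ccl12, Ms4a7 and Gatm, with Pearson's r of 0.978 to 0.968. The nearest to C3 were Saa3, Mgst1, Cd302, Fn1 and Creb5 (r of 0.989 to 0.983). Those nearest to C1s1 were Ltbp4, Igsf10, Has1, Ptx3 and Tfpi2 (r of 0.993 to 0.987). These correlations rest mostly on which class holds a gene and are given as a description.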

How the data were processed

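The genes and gene lists were chosen with earlier results of these data known. The deposited values are raw UMI counts per gene and barcode, made by the authors with Cell Ranger 3.1.0 per the file headers and the submitters' processing notes, which name the build mm10; rows carry the prefixes of a combined human and mouse reference, and mouse rows were used. Libraries followed the 10x Genomics 3' v3.1 protocol per the labels' protocols, so a count is not divided by gene length. Empty droplets were in the files. Barcodes with at least 500 UMIs, 250 genes and at most 20% mitochondrial UMIs were kept, the top 0.8% per 1000 cells by Scrublet score (scanpy 1.11.5) were removed as doublets, and barcodes of at most 100 UMIs gave the free RNA.

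A cell joined the class of which it had the largest share of markers, with at least 2 markers and 1.5 times the share of the next class; a phagocyte's side was set in the same way. Counts were summed per class and library and tested with edgeR 4.0.16 (quasi-likelihood, TMM scaling, filter on low counts, Benjamini-Hochberg adjustment over all genes tested, threshold 0.05, R 4.3.3), all 4 libraries in a fit; classes needed 20 cells in each library, which the conventional dendritic-like cells (9 to 48) did not reach. p-values measure the spread between 2 tumours a group. The fits were also run on simulated data drawn with 1 fixed spread for all genes, unlike the real genes, and nothing is read from that run. Clusters (Leiden, resolution 1) were made without complement genes. Named were all members, other list genes that passed or had the 5 highest levels of a class, and the 5 nearest genes to C1q, C3 and C1s1. Alternatives were other scaling, DESeq2 1.42.0, no filter, a replicate block, leaving out each library, stricter cells, cluster classes, a stricter gate and other thinning. 1 gene of the list is not reported here. Gene positions are from GENCODE vM21, matched by identifier.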

Additional observations from a re-analysis of the deposited data

How the results depend on the processing

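In phagocyte-like cells the number of called members, 1 with edgeR, was 3 without the filter on low counts, 3 with DESeq2 and 3 with the replicate number as a block, and 0 to 1 with a library left out; other complement genes called there were 1 without the filter. The called members were the C1q chains in each of these, and their direction held under every alternative run. Calls over all genes rose as well. They numbered 7 of 8891 with edgeR, 543 of 14547 without the filter, 98 of 8891 with DESeq2 and 249 of 8891 with the block. In fibroblast-like cells the other complement genes called were 2 without the filter, among 206 called of 16242 genes, and no alternative called a member. In T/NK-like cells 1 member (C1qb) was called without the filter and 1 with the block; other genes called were 4 without the filter, 3 with the block, 2 with DESeq2 and 0 to 2 with a library left out. In plasmacytoid dendritic-like cells they were 2 without the filter, 2 with the block and 1 to 2 with a library left out. Replicate numbers are shared by the genotypes, but the labels tie them neither to the 2 pairs nor to collection days; number differences of the 2 genotypes correlated at 0.03 in phagocyte-like, 0.40 in fibroblast-like, 0.16 in T/NK-like and 0.09 in plasmacytoid dendritic-like cells across genes, so the block rests on a number only. The log2 ratio of C1q, -1.08 on the macrophage side, ran from -1.43 to -0.81 with a library left out, and on the monocyte side, -0.36, from -2.03 to 4.03. The gap in cells with C1q, -25.0 points, was -28.8 at 500 UMIs, -11.2 at 2000, -27.3 unthinned and -26.0 to -24.0 with a library left out. The block for this share was added after seeing the data. In this balanced design it gives the same gap by construction, so it is no check of it. Leaving out a library turned the sign of log2 fold changes that were not called, which ran from -1.04 to 0.082 for C3ar1, -0.62 to 0.37 for C1ra, -1.67 to 0.64 for C4b and -0.34 to 1.08 for C3 in phagocyte-like cells, from -0.090 to 0.23 for C1ra and -0.85 to 1.19 for C4b in fibroblast-like cells, and from -0.091 to 0.99 for C4b and -0.60 to 0.53 for C3 in T/NK-like cells. C3 in T/NK-like cells also turned, to 0.091, with classes from clusters. Over all genes, T/NK-like calls were 570 of 11065 in the main fit and 1745 of 17308 without the filter. They were 1652 of 11065 with the block and 612 of 11065 with DESeq2. Plasmacytoid dendritic-like calls were 92 of 5869 in the main fit, 227 of 12606 without the filter and 332 of 5869 with the block. Where calls changed, the cause was not tested. Il1a-/- replicate 1, with the fewest UMIs, limits what can be seen of low genes.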

Other observations

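Some values of these genes belong to classes with too few cells for a comparison. Tumour epithelial-like cells had C3 at 20.3 CPM in WT replicate 1 (372 cells) and 484 CPM in WT replicate 2 (236 cells). It was at 776 CPM in the 26 such cells of Il1a-/- replicate 1. The same order was found in cluster 10 of these cells, with 19.6, 498 and 884 CPM, the last from 20 of those 26 cells. The 26 cells also had summed C1q at 149 CPM, from 2 cells, against 7.59 and 16.9 CPM in WT. In cluster 10, C1s1 was at 175 CPM in Il1a-/- replicate 1 against 1.29 and 16.6 CPM in WT. A part of RNA from other cells in these values was not tested. Between the WT tumours the C3 level of tumour epithelial-like cells thus differed more than that of fibroblast-like cells, at 2593 and 2666 CPM.

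Neutrophil-like cells had C5ar1 at 297 and 338 CPM in WT (48 and 65 cells) and at 924 CPM in Il1a-/- replicate 2 (9 cells, 8 UMIs), above the phagocyte-like cells of the same libraries. The 4 such cells of Il1a-/- replicate 1 had 2 UMIs, under the floor of 3 counts. In WT replicate 2 the mast/basophil-like cells were near that level, at 320 CPM (10 UMIs). Mast/basophil-like cells, 2 to 12 a library, had C3ar1 at 476 and 288 CPM in WT libraries (5 and 9 UMIs). In the Il1a-/- libraries these cells had 1 and 2 C3ar1 UMIs, under the floor of 3 counts. The conventional dendritic-like cells, another known source of C1q, had 1 and 7 C1q UMIs in WT libraries (29 and 48 cells). They had 0 in Il1a-/- libraries, where the floor of 3 counts stood at 123 CPM in 9 cells and 26.1 CPM in 19 cells.

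Cells left unassigned by the gate had summed C1q at 274 ± 104 CPM in WT and 373 ± 69.6 CPM in Il1a-/- libraries (SD, n = 2 each), and the genotypes overlapped.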
